A study of Mus musculus with 4 samples.

Results

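The genes described here are the enzymes that write, copy and remove DNA methylation in mouse cells, together with their direct partners: the methyltransferases *Dnmt1*, *Dnmt3a* and *Dnmt3b*, the cofactor *Dnmt3l*, the hemimethylated-DNA binding proteins *Uhrf1* and *Uhrf2*, the dioxygenases *Tet1*, *Tet2* and *Tet3*, and the glycosylase *Tdg*. These 10 genes, chosen by name, were matched to 10 of the 53379 gene entries of the expression files by their exact symbol. RNA was measured by paired-end sequencing in DKO741, a mouse embryonic stem cell (mESC) line made from E14 cells by replacing both alleles of *Terc*, the telomerase RNA gene, with a targeting construct. Pre-ALT cells at population doubling 100 (PD100) were compared with post-ALT cells at population doubling 800 (PD800), which maintain telomeres without telomerase (alternative lengthening of telomeres, ALT), with 2 libraries per group. All 4 libraries are *Terc*-/-, come from the same line and were prepared from cells grown without feeders, although fibroblast feeders were used to maintain and stock the line. The cells had been exposed to a Cre adenovirus between the targeting of the first and the other allele, and survivors arose only rarely from this line. No *Terc*+/+ library and no second line was compared here. The study calls the libraries biological duplicates, but the labels do not say that they came from separate cultures, so the p-values may measure technical spread only.

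In mammals, DNMT3A and DNMT3B add methyl groups to cytosines of CpG dinucleotides that carry none, and DNMT3L, which has no catalytic activity of its own, binds and stimulates them. After replication, UHRF1 recognises hemimethylated CpGs and recruits DNMT1, which copies the mark to the new strand. TET enzymes oxidise 5-methylcytosine, and TDG excises the most oxidised forms so that base excision repair can restore an unmodified cytosine. In mESCs, *Dnmt3b* and *Dnmt3l* are known as genes whose level differs between naive and primed pluripotency, and *Tet1* and *Tet2* as the main oxidases.

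All 10 genes had enough counts for a test. The expected counts, which are RSEM's estimates of the read pairs from each gene, lay between 298 (*Tet3*, PD800 replicate 2) and 16521 (*Tet1*, PD100 replicate 1), and the library totals between 32454121 and 38492149. *Terc* itself had an expected count of 1 in a PD100 library and 0 in the other 3 libraries. Of the 10 genes, *Tet2* rose and *Dnmt3b* and *Uhrf2* fell by edgeR (quasi-likelihood test, Benjamini-Hochberg adjusted p below 0.01 over 19148 genes). Of all tested genes, 13.1% were higher and 15.4% lower by that rule, 28.5% in either direction, so that 3 of 10 is close to the background. At an adjusted p under 0.05 the 10 genes gave 2 higher and 3 lower, beside 22.1% and 23.6% of all tested genes. The CPM values of the groups (counts scaled to library size) did not overlap for 9 of the 10, with 4 higher and 5 lower at PD800, beside 37.4% higher and 36.3% lower among all tested genes, and *Tet1* was the exception. *Tet2* and *Dnmt3b* also changed more than 2-fold, which held for 6.28% (higher) and 8.81% (lower) of all tested genes. The median log2 fold change of the 10 genes was -0.13, beside 0.01 for all tested genes.

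The annotated promoters of the 2 of these genes that changed most, *Dnmt3b* and *Tet2*, are shown here with their CpG dinucleotides, the substrate of these enzymes, in capitals, next to that of *Tet1*, the other abundant oxidase. Each runs from 250 bases before to 50 bases after the RefSeq start site, 5′ to 3′ on the strand of the gene, in build GRCm38.p6. *Dnmt3b* (plus strand, chr2:153649199-153649498) holds 30 CpGs in these 300 bases, *Tet2* (minus strand, chr3:133544341-133544640) 57 and *Tet1* (minus strand, chr10:62887275-62887574) 17, where the median of all 32851 promoters of this length is 7.
Dnmt3b: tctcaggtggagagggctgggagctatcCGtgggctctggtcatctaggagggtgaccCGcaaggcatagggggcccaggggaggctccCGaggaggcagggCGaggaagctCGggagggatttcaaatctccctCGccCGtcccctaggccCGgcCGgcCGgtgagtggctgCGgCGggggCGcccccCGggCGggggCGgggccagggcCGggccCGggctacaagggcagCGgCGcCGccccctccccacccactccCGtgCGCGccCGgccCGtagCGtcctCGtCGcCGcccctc
Tet2: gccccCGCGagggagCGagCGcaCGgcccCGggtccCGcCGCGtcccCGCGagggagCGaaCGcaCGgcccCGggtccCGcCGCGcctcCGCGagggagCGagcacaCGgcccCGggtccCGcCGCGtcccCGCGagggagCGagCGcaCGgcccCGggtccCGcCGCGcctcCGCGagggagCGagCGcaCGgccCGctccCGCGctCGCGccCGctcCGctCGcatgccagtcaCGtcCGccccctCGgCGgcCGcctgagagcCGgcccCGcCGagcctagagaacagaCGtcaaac
Tet1: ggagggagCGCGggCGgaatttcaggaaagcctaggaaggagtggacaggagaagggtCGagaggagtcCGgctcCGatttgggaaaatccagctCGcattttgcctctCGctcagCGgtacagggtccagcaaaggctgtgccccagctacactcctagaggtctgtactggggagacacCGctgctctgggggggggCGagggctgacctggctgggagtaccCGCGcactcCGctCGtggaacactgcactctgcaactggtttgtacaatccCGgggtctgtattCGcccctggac

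The *Tet2* window held more CpGs than 99.8% of all promoters, that of *Dnmt3b* more than 88.3% and that of *Tet1* more than 68.6%. Of the windows shown, those of *Tet1* and *Tet2* lie inside the annotated genes, whose 5′ ends on the minus strand are at 62908996 and 133545139. Starts farther upstream are thus not shown for these 2 genes, and which starts the cells used was not analysed. All 10 genes had a promoter entry, with 17 start sites in all. The *Dnmt3l* promoters were the poorest in CpG after the most upstream start of *Dnmt1*, with 6, 4 and 3 CpGs at 3 start sites, and 2 of the 3 *Dnmt3a* promoters were the richest after that of *Tet2*, with 46 and 47, while the third had 18. The hexamer GGGCGG, a GC box, occurred on either strand in 13 of the 17 windows, against 35.7% of all promoters, and 4 times in that of *Dnmt3b*. The pentamer CCAAT occurred in 6 of the 17, against 37.4% of all promoters. The 17 windows held 51.3% to 82.3% GC, where the median of all promoters is 52.7%. All but the most upstream *Dnmt1* window lay above that median, and the motif counts were not adjusted for GC content. Each GGGCGG contains a CpG, and 2 of the *Dnmt3a* windows overlap each other, so these counts are descriptions of the annotated sequence. Methylation of these promoters was not measured here.

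Of the de novo methyltransferases, *Dnmt3b* fell and *Dnmt3a* did not pass the test, and the difference between their changes was not itself tested. *Dnmt3b* (chr2:153649450-153687730) had expected counts of 10258 and 9156 in PD100 replicates 1 and 2, and of 2780 and 2536 in PD800 replicates 1 and 2. The PD800 libraries lay far below both PD100 libraries. Its level, as CPM scaled with edgeR's TMM factors, fell from 264 ± 14.3 (SD, n = 2) to 78.1 ± 1.12 (SD, n = 2). This is 3.38-fold lower, or -1.76 on the log2 scale with a standard error of 0.08 and an adjusted p of 6.55e-05 by edgeR, and the gene lay at percentile 5.50 of all tested genes. *Dnmt3a* (chr12:3806007-3914443), the paralogue with the same reaction, was estimated at 2797 and 2505 read pairs at PD100, against 2256 and 2100 at PD800. Its log2 fold change was -0.17 (95% interval -0.37 to 0.02) and its adjusted p 0.127 by edgeR. The libraries did not overlap in CPM, but 73.7% of all tested genes also had groups that did not overlap. As a ratio of TPM values (a level per transcript length, scaled to the same total in every library) within a library, *Dnmt3b* over *Dnmt3a* was 3.62 and 3.25 in PD100 and 1.29 and 1.21 in PD800.

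*Dnmt3l* (chr10:78041947-78063622), the cofactor of both, was estimated at 5465 and 5127 read pairs at PD100, against 5730 and 5501 at PD800. The log2 fold change was 0.19 (95% interval -0.03 to 0.42) and its adjusted p 0.136 by edgeR. It was 0.11 without PD100 replicate 1, 0.27 (adjusted p = 0.0131) without PD100 replicate 2, 0.25 without PD800 replicate 1 and 0.15 without PD800 replicate 2, and none of these passed 0.01. On the TPM scale it was at 71.3 and 72.9 in PD100 and at 69.7 and 70.7 in PD800, the highest of the 10 genes in every library. Set against the summed TPM of *Dnmt3a* and *Dnmt3b*, *Dnmt3l* stood at 1.04 and 1.05 in PD100 and at 2.76 and 2.77 in PD800. The summed RNA of its partner enzymes was at 69.3 ± 0.658 TPM (SD, n = 2) in PD100 and 25.4 ± 0.184 TPM (SD, n = 2) in PD800.

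**Figure D1:**
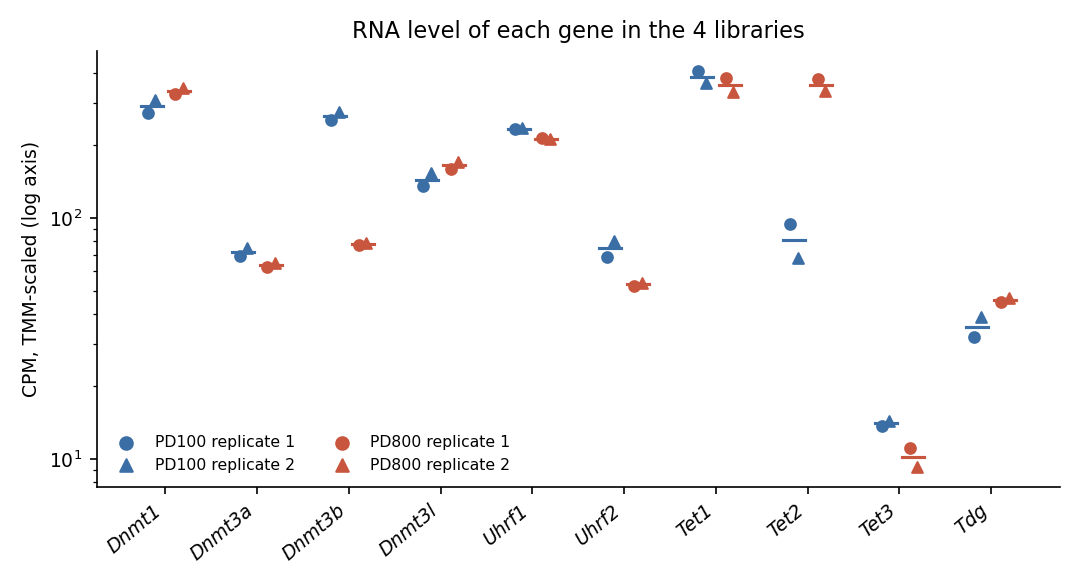
RNA level of the 10 genes in each library as TMM-scaled CPM on a log axis. Circles are replicate 1, triangles replicate 2 and short lines the mean of a group. *Dnmt3b* sits near 264 CPM in PD100 and 78.1 CPM in PD800, *Tet2* near 81.4 CPM in PD100 and 357 CPM in PD800, and the other 8 genes show smaller gaps.

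Of the maintenance genes, *Dnmt1* (chr9:20907209-20959888) was estimated at 10981 and 10319 read pairs at PD100, against 11815 and 11087 at PD800. The log2 fold change was 0.21 (95% interval -0.02 to 0.44) and its adjusted p 0.112 by edgeR. Of the 4 fits that left out a library, it passed only without PD100 replicate 2 (0.29, adjusted p = 0.00552), against 0.13 (adjusted p = 0.163) without PD100 replicate 1, 0.25 (adjusted p = 0.347) without PD800 replicate 1 and 0.18 (adjusted p = 0.487) without PD800 replicate 2. In TPM, *Dnmt1* was at 42.7 and 43.9 in PD100 and 43.3 and 42.3 in PD800, and these values overlapped. *Uhrf1* (chr17:56303321-56323486), which brings DNMT1 to hemimethylated DNA, was estimated at 9423 and 7870.0 read pairs at PD100, against 7723 and 6809 at PD800. Its log2 fold change was -0.14 (95% interval -0.31 to 0.04) and its adjusted p 0.171 by edgeR, and the libraries of a group differed by at most 1.01-fold in CPM. In TPM, *Uhrf1* over *Dnmt1* was 1.36 and 1.21 in PD100 and 1.01 and 0.960 in PD800.

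*Uhrf2* (chr19:30030513-30093722), a paralogue that also binds modified cytosine but does not replace UHRF1 in maintenance, was estimated at 2792 and 2685 read pairs at PD100, against 1886 and 1722 at PD800. It fell from 74.8 ± 7.98 to 53.0 ± 0.793 CPM (mean ± SD, n = 2 each), which is less than 2-fold, and edgeR put the change at -0.50 on the log2 scale with a standard error of 0.10 and an adjusted p of 0.00773. The call rested on both PD800 libraries: without PD800 replicate 1 the value was -0.47 (adjusted p = 0.0848) and without PD800 replicate 2 it was -0.50 (adjusted p = 0.0635). The 40 tested genes nearest to *Uhrf2* had a median log2 fold change of -0.40, and the 561 other tested genes of chromosome 19 a median of -0.38. The part of these neighbours in the value of *Uhrf2* was not tested.

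Among the oxidases, *Tet2* (chr3:133463679-133545139) was estimated at 3829 and 2268 read pairs at PD100, against 13550 and 10813 at PD800. The PD800 libraries were both above the PD100 libraries, which themselves differed by 1.40-fold in CPM, the widest gap between replicates of any of the 10 genes. *Tet2* rose 4.38-fold, from 81.4 ± 19.0 to 357 ± 28.6 CPM (mean ± SD, n = 2 each). On the log2 scale edgeR gave 2.13 with a standard error of 0.17 and an adjusted p of 0.000309, at percentile 98.4 of all tested genes. Without PD100 replicate 1, the library with the higher *Tet2*, it was 2.40 on the log2 scale, and without PD100 replicate 2 it was 1.89.

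*Tet1* (chr10:62804570-62908996) was estimated at 16521 and 12151 read pairs at PD100, against 13656 and 10686 at PD800, and the groups overlapped in CPM. The log2 fold change was -0.12 (95% interval -0.38 to 0.14) and its adjusted p 0.404 by edgeR. The value was -0.028 without PD100 replicate 1, -0.22 (adjusted p = 0.0369) without PD100 replicate 2, -0.21 without PD800 replicate 1 and -0.019 without PD800 replicate 2, and none of these passed 0.01. *Tet3* (chr6:83362373-83459084), the oxidase of the zygote and of many differentiated cells, was the lowest of the 10 genes, with 554 and 480 read pairs at PD100, against 400 and 298 at PD800. At -0.46 on the log2 scale with a standard error of 0.12, *Tet3* missed the threshold with an adjusted p of 0.0213 by edgeR, although it passed without PD100 replicate 1 (-0.49, adjusted p = 0.00349) and without PD100 replicate 2 (-0.45, adjusted p = 0.00693). It did not pass without PD800 replicate 1 (-0.59, adjusted p = 0.0352) or without PD800 replicate 2 (-0.33, adjusted p = 0.181).

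*Tdg* (chr10:82629828-82650799) acts after the TET enzymes and was estimated at 1290 and 1295 read pairs at PD100, against 1610 and 1492 at PD800. Its difference of 0.37 on the log2 scale had a standard error of 0.11 and, by edgeR, an adjusted p of 0.0364, short of 0.01. Of the 4 fits that left out a library, it passed only without PD100 replicate 2 (0.49, adjusted p = 8.21e-05), against 0.24 (adjusted p = 0.0144) without PD100 replicate 1, 0.40 (adjusted p = 0.137) without PD800 replicate 1 and 0.35 (adjusted p = 0.193) without PD800 replicate 2. *Tdg-ps*, a pseudogene copy of *Tdg* with which reads may be shared, was estimated at 170 and 146 read pairs at PD100, against 230 and 140.0 at PD800, between 9.38% and 14.3% of those of *Tdg*, so the division between the copies is uncertain. With the counts of both summed, an alternative chosen after the data were seen, the value was 0.36 and the adjusted p 0.0312. *Glt8d2* lies on the opposite strand over 6.83% of the exonic bases of *Tdg*, with 14.8 to 21.6 counts. *Aire* does so over 2.24% of those of *Dnmt3l*, and it rose from 162 and 142 counts to 348 and 264, by 1.12 on the log2 scale (adjusted p = 0.00146 by edgeR). Whether counting used the strand is not given in the sources used here, so reads of such overlaps cannot be told apart. For *Dnmt3b*, the closest relative is *Dnmt3c*, a rodent duplicate, with expected counts of 2.36 and 8.47 in PD100 and 0 and 1.07 in PD800. These lie far below the counts of *Dnmt3b*, but how reads shared by both genes were divided was not tested.

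**Figure D2:**
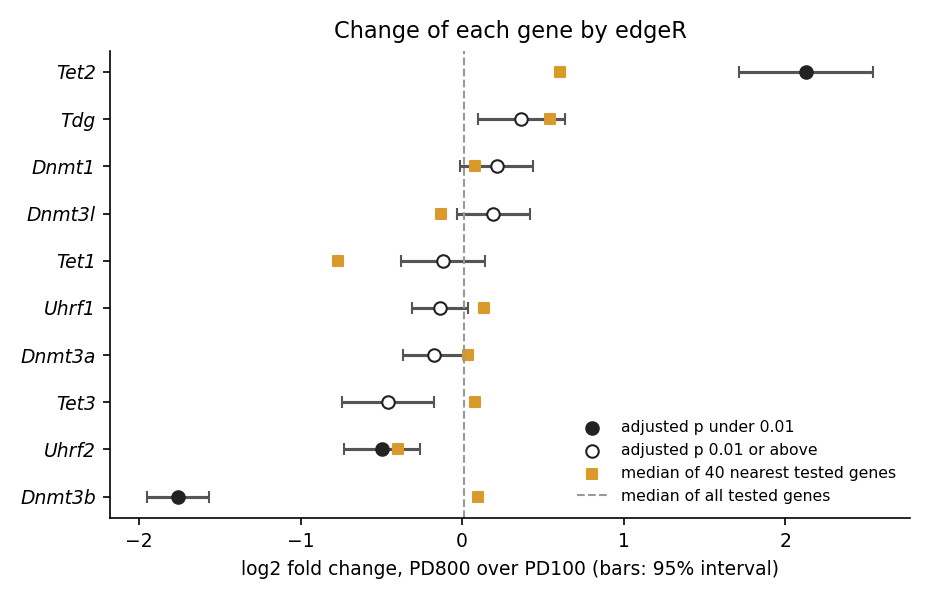
Difference between PD800 and PD100 on the log2 scale as estimated by edgeR for the 10 genes, with bars for 95% intervals. Filled circles passed an adjusted p under 0.01, and squares give the median of the 40 nearest tested genes. *Dnmt3b* at -1.76 and *Tet2* at 2.13 stand apart from the other 8 genes, which lie between -0.50 and 0.37.

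Ordered by TPM, the genes of PD100 cells ran from *Dnmt3l* (72.1 ± 1.12, SD, n = 2) through *Uhrf1* (55.6 ± 3.39), *Dnmt3b* (53.6 ± 0.424), *Dnmt1* (43.3 ± 0.863) and *Tet1* (36.8 ± 5.17) to *Uhrf2* (20.1 ± 1.18), *Dnmt3a* (15.7 ± 1.08), *Tdg* (13.7 ± 4.29), *Tet2* (9.15 ± 2.77) and *Tet3* (1.295 ± 0.00707). In that order, the libraries of *Uhrf1* and *Dnmt3b*, of *Dnmt3a* and *Tdg*, and of *Tdg* and *Tet2* overlapped. In PD800 cells, *Dnmt3l* (70.2 ± 0.707) was again highest, followed by *Dnmt1* (42.8 ± 0.707), *Uhrf1* (42.0 ± 2.04), *Tet2* (35.0 ± 4.0) and *Tet1* (28.3 ± 2.96). *Tdg* (14.4 ± 0.226), *Dnmt3b* (14.1 ± 0.191), *Uhrf2* (12.5 ± 0.870), *Dnmt3a* (11.3 ± 0.375) and *Tet3* (0.815 ± 0.106) came after them. *Dnmt3b* went from rank 3 to rank 7 and *Tet2* from rank 9 to rank 4. In PD800 only *Dnmt1* and *Uhrf1* overlapped as neighbours. These overlaps depend on the length used for TPM: with the mean effective length of the 4 libraries, *Tet2* (37.8 and 31.5) and *Tet1* (31.7 and 25.9) also overlapped at PD800 and *Dnmt1* and *Tet1* at PD100, while *Tdg* at PD100 overlapped neither *Dnmt3a* nor *Tet2*.

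The transcripts of each enzyme family were also set against their sum within a library. *Dnmt3b* gave 48.4% and 46.9% of the TPM of the 3 methyltransferases at PD100 and 20.8% and 20.6% at PD800, while *Dnmt1* gave 38.3% and 38.6% in PD100 and 63.2% and 62.4% in PD800. The sum of the 3 was 113 ± 1.52 TPM (SD, n = 2) in PD100 and 68.1 ± 0.523 TPM (SD, n = 2) in PD800. Among the oxidases, *Tet2* gave 21% and 17.3% of the TPM in PD100 and 54.7% and 54.4% in PD800. *Tet1* gave 76.5% and 79.6% in PD100 and 44.0% and 44.4% in PD800, so that the most abundant oxidase transcript was *Tet1* in the PD100 libraries and *Tet2* in the PD800 libraries. The sum of the 3 *Tet* genes was 52.9 and 41.6 TPM in PD100 and 69.1 and 59.1 TPM in PD800. The ratio of the methyltransferase sum to the *Tet* sum was 2.11 and 2.73 in PD100 and 0.991 and 1.15 in PD800. In these sums and ratios the groups did not overlap, but with 2 libraries against 2 the smallest two-sided p of an exact permutation test is 0.33, so no test was made, and RNA ratios are not ratios of protein or activity.

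**Figure D3:**
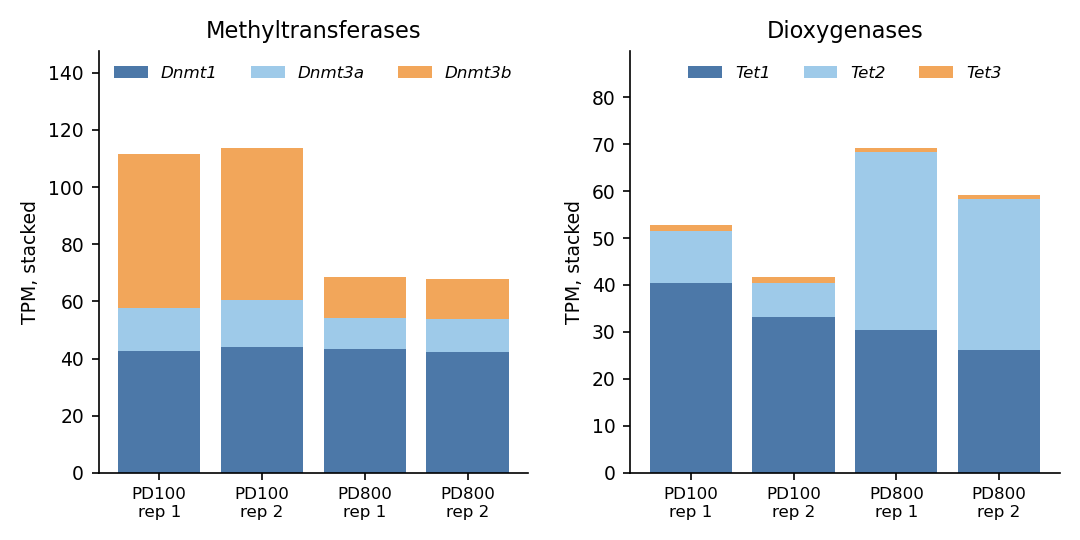
Stacked TPM of the 3 methyltransferase genes (left) and the 3 *Tet* genes (right) in each library, from 0. The *Dnmt3b* part shrinks from 53.6 to 14.1 TPM on average while the *Dnmt1* part stays between 42.3 and 43.9 TPM, and the *Tet2* part grows from 9.15 to 35.0 TPM.

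The scale mattered for the genes with small differences. On log2(TPM + 1) and log2(TPM + 0.1), the median of all tested genes lay at -0.12 and -0.21. *Dnmt1* was at -0.017 on both scales and *Dnmt3l* at -0.038, the opposite sign to their CPM values though above the median of all genes. On log2(TPM + 1), *Tdg* was at 0.10 (adjusted p = 0.735 by limma), *Dnmt3a* at -0.44 (adjusted p = 0.0246), *Uhrf1* at -0.39 (adjusted p = 0.0289) and *Tet1* at -0.36 (adjusted p = 0.0988), all lower than in CPM and none past 0.01. *Dnmt3b* (-1.86 and -1.92) and *Tet2* (1.85 and 1.95) kept their sign and passed an adjusted p of 0.01 in limma's test on both scales.

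RSEM also gives each gene a length, the mean length of its annotated transcripts weighted by their estimated abundance, which moves when the mix of transcripts moves. *Dnmt3b*, with 12 annotated transcripts, had lengths of 3827 and 3771 bases in PD100 and of 3660 (replicate 1) and 3602 bases in PD800. *Tet2*, with 10 transcripts, had 6796 and 6808 bases in PD100 and 6580 and 6530 bases in PD800. *Uhrf1* went the other way, from 3293 and 3269 to 3343 and 3337 bases. In these 3 genes the groups did not overlap, the PD800 mean differing by -4.43% for *Dnmt3b* (-168 bases), by -3.63% for *Tet2* (-247 bases) and by 1.78% for *Uhrf1*. Of the 9342 tested genes with several transcripts and at least 100 counts in every library, 35.5% had lengths that did not overlap, 14.3% shorter and 21.2% longer in PD800, so 3 of 10 is near the background. No test was made, and which transcripts differ was not analysed here.

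For other genes the length varied most between replicates. In *Tdg* it was 2506 and 1785 bases in the PD100 libraries, a gap of 33.6% of their mean, against 4.01% between the PD800 libraries. Its TPM therefore read 10.6 and 16.7 in PD100 although the counts were nearly equal, and with the mean effective length of the 4 libraries in place of each library's own it read 13.1 and 12.9. *Uhrf2* (12.2%) and *Dnmt3a* (11.6%) also had wide gaps between the PD100 replicates. For these 3 genes a TPM difference partly carries the estimated transcript mix.

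**Figure D4:**
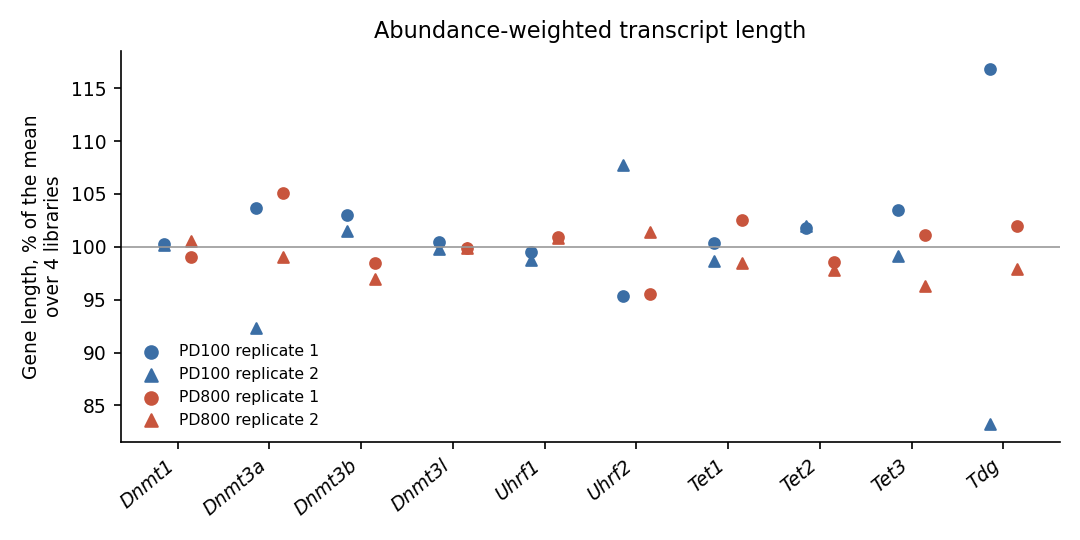
RSEM gene length of each gene in each library, as a percentage of its mean over the 4 libraries. The PD800 points lie below the PD100 points for *Dnmt3b* and *Tet2*, above them for *Uhrf1*, and the PD100 points of *Tdg*, at 2506 and 1785 bases, are the farthest apart.

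Genes around the 10 loci moved by differing amounts. The 40 tested genes nearest to *Dnmt3b* had a median log2 fold change of 0.10, against -1.76 for the gene, and those nearest to *Tet2* a median of 0.61 (34 of 40 above 0), against 2.13. *Tet1* lay among genes with a median of -0.77 (4 of 40 above 0), far below its own -0.12, while *Tdg*, elsewhere on chromosome 10, lay among genes with a median of 0.54, above its own 0.37. *Dnmt3l*, on the same chromosome, had neighbours at -0.13. For *Dnmt1* (0.08), *Dnmt3a* (0.04), *Uhrf1* (0.14) and *Tet3* (0.08) the neighbours were near 0. Over the 20 nearest genes the median was 0.83 for *Tdg*, and it lay below 0 for *Dnmt1* (-0.084) and *Dnmt3a* (-0.087). Across all other tested genes of the same chromosome, the median was 0.32 for *Tet2*, 0.36 for *Dnmt3a* and 0.21 for *Tet3*. It was -0.23 for chromosome 10. Gene copy number was not analysed here.

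Of 18 genes for recruitment and regulation of methylation, 4 rose, 1 fell and 13 did not pass an adjusted p of 0.01 in edgeR's test. Their median log2 fold change was 0.11. Of all tested genes, 13.1% rose and 15.4% fell by that rule, 28.5% in either direction. The calls of this list, taken in both directions together, were close to that background. *Dppa3*, a maternal protein that limits UHRF1 binding to chromatin, fell by 2.17 on the log2 scale (adjusted p = 0.00026), from 502 and 540 counts to 110 and 105. *Cdca7l* rose by 1.54 (adjusted p = 0.000147). *Zfp57*, which with *Zfp445* keeps methylation at imprinted loci, rose by 1.302 (adjusted p = 0.00036), and *Zfp445* by 0.40 (adjusted p = 0.00619). *Pcna* and *Hells*, a replication clamp and a remodeller on which maintenance methylation depends, were at -0.13 (adjusted p = 0.306) and -0.24 (adjusted p = 0.0417). Of 10 methyl-CpG readers, 0 passed an adjusted p of 0.01 in edgeR's test in either direction, with 2 under 0.05, and their values ran from -0.30 to 0.43.

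Of 14 TET partners and genes of cofactor supply, 5 rose and 3 fell (median 0.12), beside 13.1% and 15.4% of all tested genes. *Prdm14*, a transcriptional regulator, rose by 2.57 (adjusted p = 4.46e-05 from edgeR's test), from 200 and 155 counts to 1025 and 920. Its part in the values of the methylation enzymes was not tested. *Nanog*, a pluripotency factor whose protein binds TET1 and TET2, rose by 2.32 (adjusted p = 4.88e-05). *D2hgdh*, which clears the TET inhibitor D-2-hydroxyglutarate, fell by 3.77 (adjusted p = 0.000196), and *Slc23a1*, a transporter of ascorbate, fell by 2.10 (adjusted p = 0.000661). *Ogt*, a partner of all TET proteins, was at 0.35 (adjusted p = 0.0328).

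Of 18 genes of base excision repair and cytosine deamination, 1 rose and 4 fell (median -0.05), beside 13.1% and 15.4% of all tested genes. Both directions together were close to the 28.5% of all tested genes. *Apobec3* rose by 0.45 (adjusted p = 0.00391 from edgeR's test), while *Gadd45b*, a stress-induced gene linked to demethylation, fell by 1.34 (adjusted p = 0.000393), the DNA glycosylase *Mpg* by 0.66 (adjusted p = 0.00157) and *Apobec1* by 0.51 (adjusted p = 0.0092). Of 17 genes that supply methyl groups, 3 rose and 5 fell (median 0.02), beside 13.1% and 15.4% of all tested genes. *Gldc*, the glycine decarboxylase that feeds the folate cycle, fell by 2.33 (adjusted p = 4.88e-05), from 9982 and 8904 counts to 1748 and 1729, and *Mthfd1l* by 0.89 (adjusted p = 0.000786). *Mthfd1* (0.48, adjusted p = 0.00555) and the methionine synthase *Mtr* (0.47, adjusted p = 0.00318) rose.

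**Figure D5:**
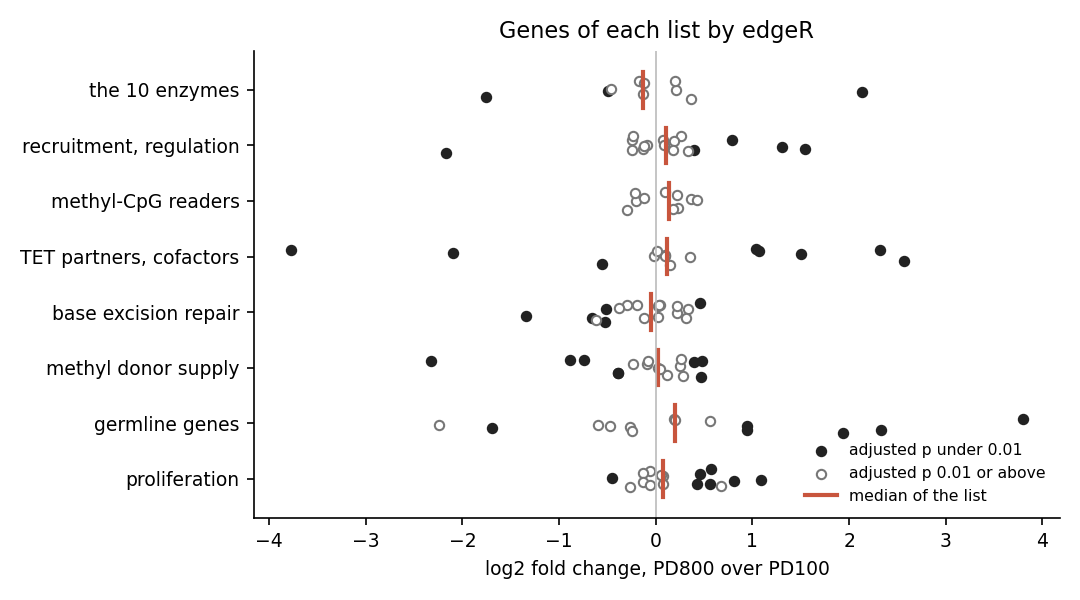
Difference between PD800 and PD100 on the log2 scale, estimated by edgeR, for the tested genes of 8 lists. Filled points passed an adjusted p under 0.01 and red lines are medians. List medians lie between -0.13 and 0.19, while single genes reach -3.77 (*D2hgdh*) and 3.80 (*Sohlh2*).

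Of 15 germline genes whose promoters are known to be methylated in somatic cells, 14 were tested, 5 rose, 1 fell and 8 did not pass an adjusted p of 0.01 (median 0.19). *Sohlh2*, a germ cell transcription factor, rose by 3.80 (adjusted p = 3.03e-05 from edgeR's test) from 121 and 90 counts to 1461 and 1252, and *Dazl*, an RNA-binding protein of germ cells, by 2.33 (adjusted p = 0.000118). *Mael*, of the piRNA pathway, rose by 0.95 (adjusted p = 0.00422), and *Tdrd1*, of the same pathway, fell by 1.69 (adjusted p = 0.000427). More genes of this list rose than fell by that rule, where 13.1% of all tested genes were higher and 15.4% lower. At an adjusted p under 0.05 by edgeR, 5 were higher and 4 lower, beside 22.1% and 23.6% of all tested genes.

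Marker genes gave the cell states beside these results. At an adjusted p under 0.01 by edgeR, 13.1% of all tested genes rose and 15.4% fell, the background of the marker counts below. Of 10 mESC markers, 6 rose and 0 fell, the 2 largest being *Klf4* (2.84, adjusted p = 5.22e-05 by edgeR) and *Tbx3* (2.23), both naive pluripotency factors, and the 2 smallest *Tfcp2l1* (1.22) and *Utf1* (0.37). *Pou5f1* and *Sox2*, which define the cell type, were abundant in all 4 libraries, with 16800 to 21619 and 3932 to 7611 counts, at 0.35 and 0.63 (adjusted p = 0.0194 and 0.0102). Of 9 formative and primed epiblast markers, 5 fell and 1 rose, and their summed level was 96.6 to 102 CPM at PD100 and 44.9 to 45.4 CPM at PD800. *Pou3f1* fell by 2.82, from 1164 and 1082 counts to 130 and 163, and *Fgf5*, a defining marker, fell by 1.86, from 47 and 37 counts to 8 and 13. *Fst* fell by 0.82, while *Zic2* rose by 1.99. Most of these markers of primed cells thus moved in the direction of *Dnmt3b*, and their part in its change was not tested.

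All 9 primitive endoderm markers fell, their sum running from 1208 to 1260.1 CPM at PD100 and from 165 to 168 CPM at PD800. *Gata6*, a defining factor, went from 638 and 453 counts to 42 and 37, *Gata4* from 1451 and 842 to 146 and 136, *Sox17* from 711 and 581 to 9 and 9, and *Sparc* from 23098 and 18851 to 3066 and 2825. *Foxa2*, at 1 count in each PD800 library, was at least 57.1-fold lower against a floor of 3 counts per library. Fibroblast markers summed to 46.4 and 68.6 CPM at PD100 and to 11.1 and 12 CPM at PD800, and 5 of the 7 tested fell, among them *Col1a1* (from 526 and 815 counts to 70 and 81), *Col3a1* (-2.52), *Col1a2* (-2.33) and *Thy1* (-1.75). Trophoblast markers summed to 56.1 and 59.8 CPM at PD100 and to 44.7 and 42.4 CPM at PD800. Of the 7 tested, 4 fell, *Krt7* (-3.75), *Hand1* (-2.92), *Cdx2* (-1.44, from 55 and 37 counts to 15 and 16) and *Ascl2* (-1.39), and *Eomes* rose (1.98). The part of these cell types in the values of the methylation enzymes was not tested, and in bulk RNA fewer cells of a type and less RNA per cell cannot be told apart.

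Of 16 proliferation genes, a group with which *Dnmt1* and *Uhrf1* are usually co-expressed, 6 rose and 1 fell (median 0.08). The shares of all tested genes were 13.1% and 15.4%. *Mki67* (1.09, adjusted p = 0.000491 by edgeR) and the mitotic kinase *Plk1* (0.80) rose most, *Ccna2* rose least (0.43), and *Mcm5*, a subunit of the replicative helicase, fell by 0.45 (adjusted p = 0.00483).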

How the data were processed

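Bulk RNA of 4 libraries was analysed, and the labels placed each in the PD100 or PD800 group. The labels name total RNA while the study speaks of mRNA sequencing, so whether RNA without a poly(A) tail was kept is not settled here. Per the labels and the study's methods, the authors aligned 101 bp paired-end reads to mm10 with STAR 2.5.3a and quantified genes with RSEM 1.3.0. The deposited expected count of a gene is an estimated number of read pairs, not scaled for depth, in which reads of several genes are divided. The deposited TPM, scaled by the authors for transcript length and to the same total per library, and the RSEM gene length were also used. The deposited FPKM values were not used. The annotation release is not given in the sources used here, and coordinates were taken from GENCODE M21 on GRCm38 (mm10), which holds 53274 of the 53379 identifiers.

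After rounding of the expected counts, genes were filtered (filterByExpr, minimum count 10) and tested under edgeR 4.0.16 in R 4.3.3, using TMM factors, the quasi-likelihood test and Benjamini-Hochberg adjustment over all 19148 tested genes. TMM factors were 1.05 and 1.03 in PD100 and 0.960 and 0.964 in PD800, and mitochondrial genes took 11.0% to 17.7% of the counts. Replicates differed by more than sampling noise (chi-square per degree of freedom 65.3 in PD100 and 10.1 in PD800). A floor of 3 counts was 0.0743 to 0.0934 CPM and covers counting error only. Alternatives used DESeq2 1.42.0, limma 3.58.1 on log2(TPM + pseudocount), other normalisations and filters, a replicate block and each library left out. The fit was tested on simulated data. Promoter windows came from RefSeq, 300 bases each. The genes and lists were chosen with earlier results of these data known. Named genes are the 10 enzymes and, of each list, the 2 highest and 2 lowest log2 fold changes among genes past an adjusted p of 0.01 with at least 1 CPM in a group, plus the defining markers *Pou5f1*, *Sox2*, *Gata6*, *Col1a1*, *Fgf5* and *Cdx2*. *Pcna*, *Hells*, *Ogt* and the relatives and overlapping neighbours of the 10 genes were chosen after their values were seen.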

Additional observations from a re-analysis of the deposited data

How the results depend on the processing

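*Dnmt3b* and *Tet2* kept direction and call in all 13 alternatives, with log2 fold changes between -1.92 and -1.72 and between 1.85 and 2.40. *Dnmt3a*, *Uhrf1* and *Tet1* stayed on the same side of the threshold in all 13. On log2(TPM + 1) and log2(TPM + 0.1), *Dnmt1* was at -0.017 and -0.017 and *Dnmt3l* at -0.038 and -0.038, against 0.21 and 0.19 in CPM. One of the 10 genes was higher past an adjusted p of 0.01, and 2 were with the replicate block, with no filter on low counts and at an adjusted p under 0.05, *Tdg* being added. With those same settings 3 genes in place of 2 were lower, *Tet3* being added (adjusted p = 0.00155 with no filter). With each library left out, between 1 and 3 were higher and between 1 and 3 lower. Same-numbered libraries deviated together (correlation 0.265), but nothing in the labels ties them, and the block also gave *Tet3* (-0.46) an adjusted p of 0.00483 and *Tdg* (0.37) one of 0.00347 by edgeR, both then called. Over all genes, 1202 were higher and 1686 lower past both thresholds, against 297 and 920 with limma on log2(TPM + 1) and with 533 higher and 1779 lower on log2(TPM + 0.1), where only the higher calls dropped. At an adjusted p under 0.05, genes lower numbered 3 of the regulators, 4 of the germline genes and 2 of the proliferation genes, and genes higher 2 of the readers, 5 of the methyl donor genes and 2 of the trophoblast markers. With the mean effective length, an alternative chosen after the data were seen, *Dnmt1* gave 38.2% of methyltransferase TPM in PD100, *Dnmt3b* 20.3% in PD800, and *Tet1* and *Tet2* 44.8% and 53.9% of *Tet* TPM in PD800. *Tet2* over *Tet1* was then 1.20 in PD800, *Dnmt3l* over its partners 1.03 in PD100, and *Uhrf1* over *Uhrf2* 2.71 in PD100 and 3.46 in PD800.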
